A study of Mus musculus with 6 samples.

Results

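Dppa and 2-cell-like genes are described here by where 7 of them lay in the folded genome of mouse embryonic stem cells. The members, chosen by name, are Dppa2, Dppa3, Dppa4, Zscan4c, Zscan4d, Zscan4f and Zfp352, which are 7 of the 20375 protein-coding genes that could be placed. Their loci were taken from the RefSeq annotation of GRCm38.p6, which has the coordinates of mm10. Each was read out as the subcompartment label of the 50 kb bins within 250 kb of the gene, and as the chromatin loops with an anchor within 50 kb of it.

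The labels come from Hi-C, which counts pairs of DNA segments that are close together in the nucleus, in 6 libraries of E14 cells. E14 is a line of wild-type embryonic stem cells kept here in serum and leukemia inhibitory factor. Control cells received esiRNA, an enzyme-cut pool of short interfering RNAs, against EGFP. Brg1KD cells received esiRNA against Smarca4, which encodes Brg1, the ATPase of the esBAF chromatin remodeller, and Ino80KD cells received esiRNA against Ino80, the ATPase of the INO80 remodeller. All were harvested 48 h after transfection, with 2 libraries per group, of which replicate 1 is batch 1 and replicate 2 is batch 2 in each group. Nothing in the labels says that the replicates were separate cultures, so the p-values measure only the spread between these libraries, which may be technical. The data hold no expression values, so neither the loss of Smarca4 and Ino80 RNA nor the activity of the members was measured. Per library the genome is divided into 8 classes, ranked from B.2.2 (rank 1, the most inactive and gene-poor chromatin) through B.2.1, B.1.2, B.1.1, A.2.2, A.2.1 and A.1.2 to A.1.1 (rank 8, the most active and gene-rich). A label describes a population of cells, so a shift in a few cells and a smaller shift in all cells cannot be told apart. As a check of the labelled cell type, 6 of 6 stem cell marker genes lay in A in all 6 libraries, against 2 of 5 fibroblast markers and 67.8% of all genes placed. The fibroblast marker Pdgfra was in B.1.2 and B.1.1 in control, in B.1.2 in both Brg1KD and in A.2.1 in both Ino80KD libraries (limma adjusted p = 0.162 for Ino80KD against control).

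Dppa2 and Dppa4 are small proteins with a SAP domain that bind DNA as a pair. In mouse embryonic stem cells they act upstream of Dux. Dux is a transcription factor that switches on genes of the first embryonic genome activation. Zscan4 genes and Zfp352, which encode zinc-finger proteins, are among the genes expressed at that stage, and a rare fraction of embryonic stem cells passes through a similar, 2-cell-like state. Dppa3, also called Stella, protects the maternal genome from demethylation in the zygote and marks primordial germ cells.

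Zscan4c, Zscan4d and Zscan4f are recent copies of one another in a tandem cluster on chromosome 7, and their promoters are shown to give the degree of likeness between the copies. None of the sources used here says how reads that fit several copies were assigned, and its part in the labels of this cluster was not tested. The cluster holds 9 annotated genes and pseudogenes, of which 4 are protein-coding (Zscan4b, Zscan4c, Zscan4d and Zscan4f). RefSeq promoters on GRCm38.p6, from 250 bases before to 50 bases after the annotated start, were matched for 4 of the 7 members. Those of the Zscan4 genes lie at chr7:11005495-11005794 on the plus strand (Zscan4c), chr7:11166099-11166398 on the minus strand (Zscan4d) and chr7:11397665-11397964 on the plus strand (Zscan4f). They are written 5′ to 3′ on the strand of the gene, with the capitals marking the TATA box motif TATAAAA:
Zscan4c: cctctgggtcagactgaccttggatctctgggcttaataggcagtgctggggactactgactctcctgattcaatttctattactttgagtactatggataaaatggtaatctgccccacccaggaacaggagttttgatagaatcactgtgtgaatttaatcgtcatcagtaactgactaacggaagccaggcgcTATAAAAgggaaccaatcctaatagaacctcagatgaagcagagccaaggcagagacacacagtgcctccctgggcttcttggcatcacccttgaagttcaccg
Zscan4d: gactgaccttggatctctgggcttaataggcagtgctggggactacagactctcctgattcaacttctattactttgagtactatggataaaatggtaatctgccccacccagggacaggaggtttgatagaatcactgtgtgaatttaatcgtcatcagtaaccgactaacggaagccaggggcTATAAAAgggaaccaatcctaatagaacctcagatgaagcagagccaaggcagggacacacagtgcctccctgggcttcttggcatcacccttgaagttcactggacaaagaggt
Zscan4f: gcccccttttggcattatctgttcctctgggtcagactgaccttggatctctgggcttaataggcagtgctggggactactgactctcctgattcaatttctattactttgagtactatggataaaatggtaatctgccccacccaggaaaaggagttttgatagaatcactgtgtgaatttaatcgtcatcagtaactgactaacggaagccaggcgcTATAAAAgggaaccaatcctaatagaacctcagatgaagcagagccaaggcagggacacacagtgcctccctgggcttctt

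Aligned without gaps, the Zscan4c and Zscan4f promoters differed at 2 of 277 positions (99.3% identity). Zscan4c and Zscan4d differed at 8 of 289 (97.2%), and Zscan4d and Zscan4f at 7 of 266 (97.4%). TATAAAA occurred 1 time in each, with its first base 54 (Zscan4c), 65 (Zscan4d) and 31 bases (Zscan4f) before the annotated start. Over 21263 promoters of protein-coding genes of the same length, 5.04% held TATAAAA on either strand and 3.37% on the strand of the gene. The Zfp352 promoter (chr4:90218570-90218869, plus strand) held no TATAAAA. Among the 12-base words with the most copies in it was AGGACAACACAC, with 7 copies on the strand of the gene. On either strand this word was in 1 of the 21263 promoters, that of Zfp352 itself. Because the word was picked from this promoter, that count is a description and not a test. The 4 promoters were poor in CpG, with 4 (Zscan4c), 3 (Zscan4d), 3 (Zscan4f) and 2 (Zfp352) CpG dinucleotides against a median of 13 over all promoters.

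The 7 members were spread over most of the range of subcompartments. Dppa3, Dppa4 and Dppa2 were in the A.1 classes in all 6 libraries, whereas the Zscan4 genes were in B.1 and Zfp352 in B.2 in all 6. In the mean of both controls Dppa3 had rank 8.0 (SD 0, n = 2), the highest there is, which 34.7% of the 20375 genes shared. Dppa2 and Dppa4 had rank 7.5 ± 0.707 (SD, n = 2), with 57.5% of genes lower and 34.7% higher. Zscan4f followed at rank 4.0 and Zscan4c and Zscan4d at rank 3.0, with 73.1% and 79.8% of genes higher. Zfp352 was lowest at rank 2.0, with 87.3% of genes higher and 8.25% lower. The controls of Zscan4c, Zscan4d, Zscan4f and Zfp352 had an SD of 0 (n = 2). The difference between Dppa3 and the pair Dppa2 and Dppa4 was within the spread of the pair's controls. All other steps in this order were larger than the spread between the controls, but an SD of 0 means only that 2 whole labels were equal. In Brg1KD replicate 1 and Ino80KD replicate 2, Zscan4f had the label of Zscan4c and Zscan4d.

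**Figure D1:**
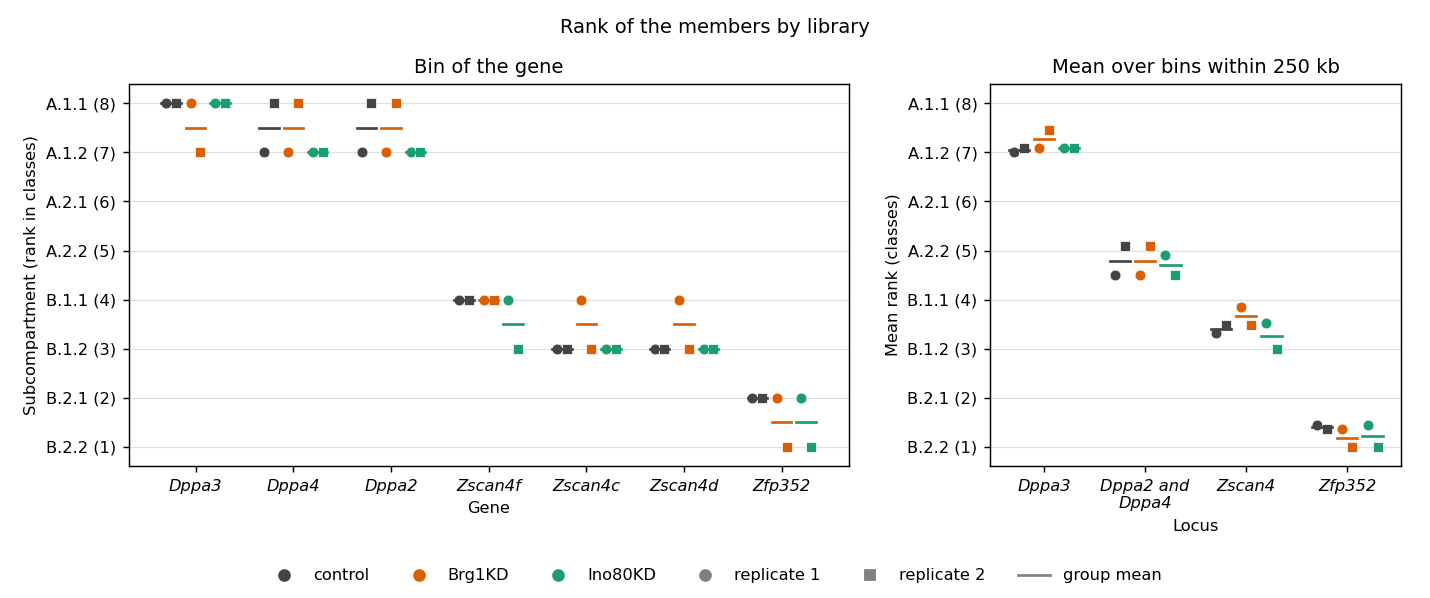
Subcompartment rank of each member's own 50 kb bin (left, y axis in classes from 1, B.2.2, to 8, A.1.1) and mean rank of the bins within 250 kb of each locus (right), with control in grey, Brg1KD in orange and Ino80KD in green. Circles are replicate 1, squares replicate 2 and bars the group mean. The 3 Dppa genes sit at ranks 7 and 8 and the other members at rank 4 or below in every library, and the groups overlap at all 4 loci.

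Dppa4 and Dppa2 lie side by side on chromosome 16, at 48283735 to 48294292 and 48310274 to 48319513. Both carried A.1.2 in control replicate 1, A.1.1 in control replicate 2, A.1.2 in Brg1KD replicate 1, A.1.1 in Brg1KD replicate 2 and A.1.2 in both Ino80KD libraries. In control and Brg1KD the label was thus A.1.2 in batch 1 and A.1.1 in batch 2, while Ino80KD had A.1.2 in both. What set these labels was not tested. The segment that holds them ran from 48250001 to 48650000 (400 kb) with the same borders in all 6 libraries. Of the 5102 segments of control replicate 1, 389 (7.62%) kept both borders in all 6 libraries, 92 of them of at least 400 kb.

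The left border of that segment lay 33734 bases before Dppa4 and was among the steepest of the genome. Across it the label went from B.2.2 to A.1.2 or A.1.1 in 5 libraries, and from B.2.1 to A.1.2 in Ino80KD replicate 1, which are steps of 6, 7, 6, 7, 5 and 6 classes in the order of the libraries. A step of at least 5 classes in all 6 libraries occurred at 103 of 47592 pairs of neighbouring bins (0.216%), and 143 genes (0.702%) lay in a bin beside one. On the gene side of the border 7 of the 12 bins of the window (58.3%) were in A in every library. On the far side 5 bins were in B.2.2, or in B.2.1 in Ino80KD replicate 1. The only protein-coding neighbours within 250 kb were Gm52257 and Morc1, the latter a germline ATPase gene that shares the segment.

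The mean rank of the Dppa2 and Dppa4 window was 4.50 and 5.08 in control, 4.50 and 5.08 in Brg1KD, and 4.92 and 4.50 in Ino80KD (replicates 1 and 2). The groups overlapped, and Brg1KD held the same pair of values as control. The difference from control was 0 for Brg1KD (0 in each batch) and -0.0833 for Ino80KD (exact two-sided permutation p = 1 for each). For Ino80KD the sign differed between batches, at 0.417 in batch 1 and -0.583 in batch 2. Here and at the other loci, 2 against 2 libraries cannot give an exact p below 0.333.

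Dppa3 lies on chromosome 6 at 122626424 to 122630271, in a cluster with Nanog and Slc2a3 on one side and Gdf3 and Apobec1 on the other. Its own bin was in A.1.1 in every library except Brg1KD replicate 2, where it was in A.1.2. Its window was the highest of the loci, with mean ranks of 7.0 and 7.09 in control, 7.09 and 7.45 in Brg1KD, and 7.09 and 7.09 in Ino80KD. Brg1KD replicate 2 stood above the other 5 libraries, although Dppa3 itself was 1 class lower there. In that library the labels of the window were exchanged: the 5 bins to the left were A.1.1 and the 6 from Dppa3 onward A.1.2, where the others had A.1.2 farther to the left and A.1.1 from Dppa3 to the border.

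The right border of the Dppa3 segment, at 122850000, was also absent from Brg1KD replicate 2. The other 5 libraries stepped there from A.1.1 to B.2.1, by 6 classes, and Brg1KD replicate 2 had A.1.2 on both sides. The bin beyond the border, which holds C3ar1 and Necap1, differed from control by 2.5 classes in the Brg1KD mean, with an adjusted p of 0.808 by limma. Without Brg1KD replicate 2 that shift was 0, and without Brg1KD replicate 1 it was 5 classes. Only 1 of 11 bins (9.09%) of the Dppa3 window had the same label in both Brg1KD libraries, against 10 of 11 in control and 11 of 11 in Ino80KD. Over all bins of the genome the replicates had the same label in 68.9% (control), 68.3% (Brg1KD) and 69.5% (Ino80KD). The window differed from control by 0.227 classes in Brg1KD (0.0909 in batch 1 and 0.364 in batch 2, exact permutation p = 0.667) and by 0.0455 in Ino80KD (exact permutation p = 1).

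**Figure D2:**
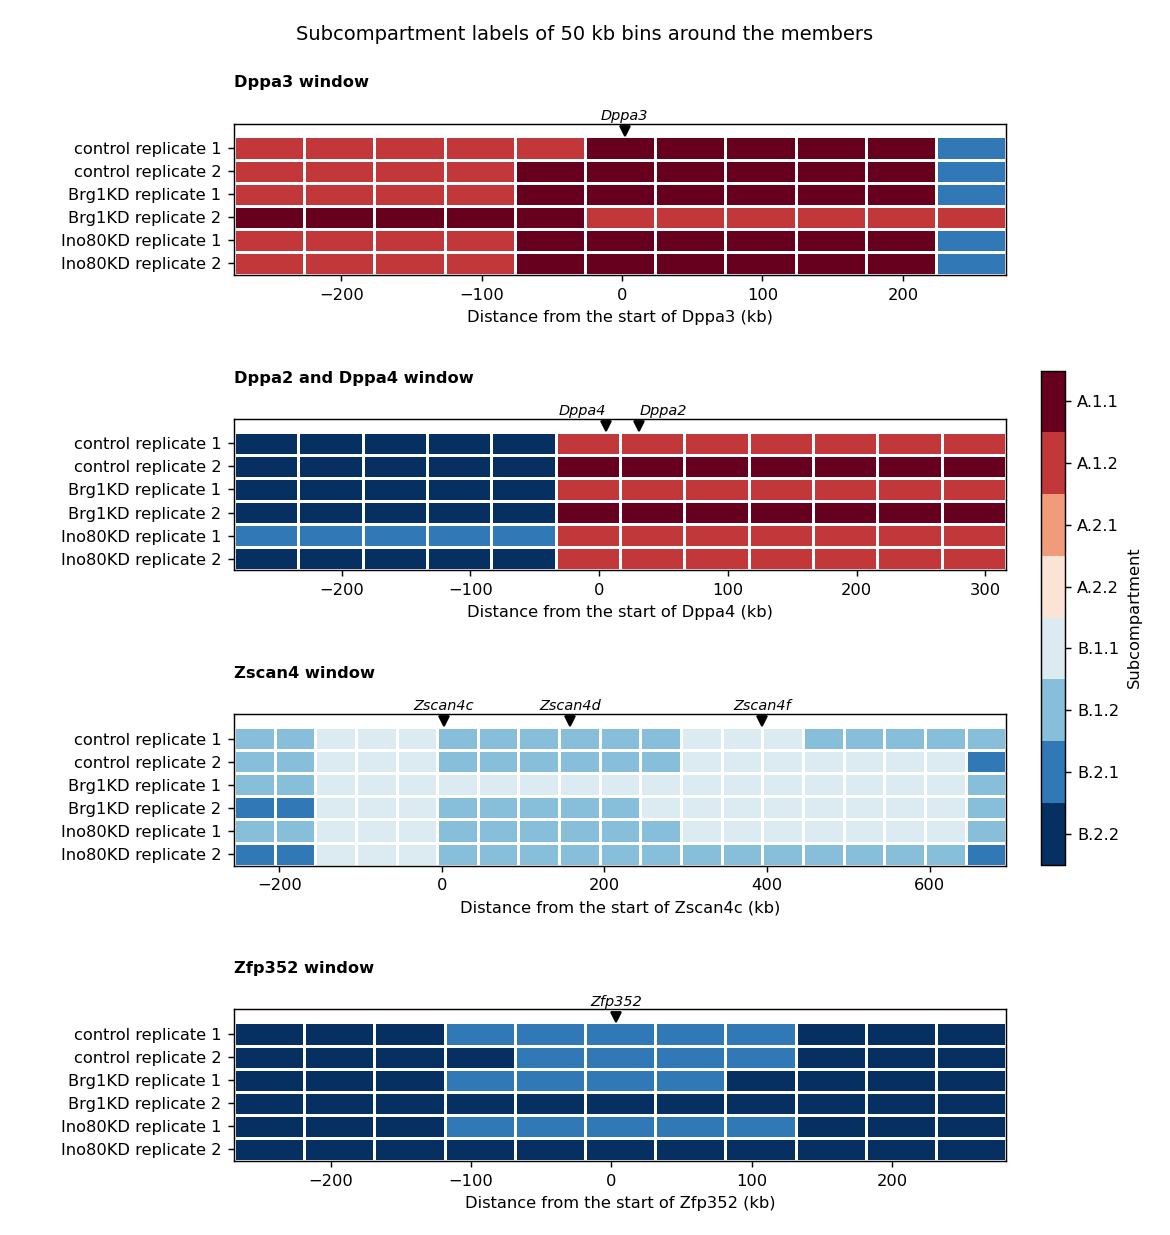
Subcompartment label of every 50 kb bin within 250 kb of the members, 1 row per library, with the x axis as distance in kb from the start of the named gene and triangles at the middle of each member. Red bins are in A and blue bins in B, darker towards the extremes. The border left of Dppa4 is at one place in all rows, Brg1KD replicate 2 differs from the other rows around Dppa3, and the Zscan4 and Zfp352 windows hold no A bin.

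Zscan4c (chromosome 7, 11005745 to 11010547) and Zscan4d (11161643 to 11166148) carried the same label in every library, which was B.1.2 in 5 of them and B.1.1 in Brg1KD replicate 1. Zscan4f (11397915 to 11402318) was in B.1.1 in 5 libraries and in B.1.2 in Ino80KD replicate 2. In both controls and in Brg1KD replicate 2 and Ino80KD replicate 1, Zscan4f therefore lay 1 class above Zscan4c and Zscan4d and in a different segment. In the other 2 libraries 1 segment held all 3 genes. It was 800 kb of B.1.1 in Brg1KD replicate 1 (10850001 to 11650000) and 650 kb of B.1.2 in Ino80KD replicate 2 (11000001 to 11650000).

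The Zscan4 window of 19 bins held no A bin in any library. Within 250 kb of the members lay the 4 protein-coding Zscan4 genes and 35 annotated pseudogenes, and the last bin of the window also reached Vmn1r72, a vomeronasal receptor gene. The number of B.1.1 bins was 6 and 10 in control, 16 and 11 in Brg1KD, and 10 and 3 in Ino80KD. Both Brg1KD counts were above both control counts, which was seen after the fact and not tested, and Ino80KD had a count inside the control range and one below it. Mean ranks were 3.32 and 3.47 in control, 3.84 and 3.47 in Brg1KD, and 3.53 and 3.0 in Ino80KD. Brg1KD replicate 1 was the highest and Ino80KD replicate 2 the lowest, and Brg1KD replicate 2 had the value of control replicate 2. The shift from control was 0.263 classes in Brg1KD (exact permutation p = 0.667), at 0.526 in batch 1 and 0 in batch 2. In Ino80KD it was -0.132 (exact permutation p = 1), at 0.211 in batch 1 and -0.474 in batch 2.

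Zfp352 lies on chromosome 4 at 90218820 to 90225687, with no other protein-coding gene within 250 kb. Its bin was in B.2.1 in both controls and in replicate 1 of each knockdown, and in B.2.2, the lowest class, in replicate 2 of each knockdown. In the 4 libraries with B.2.1 it sat on an island of 200 to 250 kb of that class within B.2.2. In Brg1KD replicate 2 and Ino80KD replicate 2 the island was absent, and the gene lay in B.2.2 segments of 1500 kb and 1450 kb. The count of B.2.1 bins among the 11 of the window was 5 and 4 in control, 4 and 0 in Brg1KD, and 5 and 0 in Ino80KD. Mean ranks were 1.45 and 1.36 in control, 1.36 and 1.00 in Brg1KD, and 1.45 and 1.00 in Ino80KD. The shift from control was -0.227 classes in Brg1KD (-0.0909 in batch 1 and -0.364 in batch 2, exact permutation p = 0.667). In Ino80KD it was -0.182 (0 in batch 1 and -0.364 in batch 2, exact permutation p = 1). Both knockdowns are set against the same controls, so their likeness in batch 2 is given as values only.

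Brg1KD was compared with control bin by bin, to find whether chromatin at the members differed in class in cells given esiRNA against the esBAF ATPase. Of the 53 bins in the 4 windows 1 passed, a bin of the Zscan4 cluster that rose from B.1.2 to B.1.1. It lies between Zscan4d and Zscan4f, at 11250001 to 11300000, and holds no protein-coding gene. Both controls and both Ino80KD libraries had B.1.2 and both Brg1KD libraries B.1.1 there, a shift of 1 class towards A with an adjusted p of 8e-08 by limma. That is 1.89% of the windows' bins, against 4.83% of all 47717 bins called in this comparison and 1.53% called towards A. The share in the windows was thus near that of the genome towards A and below it in all. These p-values are not calibrated, because limma was given 18941 bins with no spread within any group, 10 of them in the windows. Such bins pass more easily, and they were rarer among the 53 bins than among all 47717. Every bin of the Dppa windows had unlike labels within some group. The shares are therefore not like for like, and nothing is concluded from the lower one. With 1 common variance for all bins the adjusted p of the Zscan4 bin by limma was 0.236, and the bin beyond the Dppa3 border passed in its place (3.11e-05). With 100 kb bins the Zscan4 bin had 0.367, and with batch as a block 2.02e-05. Leaving out 1 library raised the share of calls over the genome too: the count was 11 without Brg1KD replicate 1 (10.95% of all bins called), 6 without Brg1KD replicate 2 (11.2%), and 2 without control replicate 2 (11.5%) or either Ino80KD library (8.08%). In such a fit a group with 1 library is assumed to vary like the others.

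No member's own bin passed in Brg1KD, where 4.83% of all bins did. The members' shifts were 0.5 classes or 0, with an unadjusted p of 0.278 or more by limma. Each of these bins had unlike labels within some group, which makes passing harder, so nothing is concluded from this. Zscan4c and Zscan4d were 0.5 classes higher in the Brg1KD mean (3.5 against 3.0) and Dppa3 0.5 lower (7.5 against 8.0), each from 1 library, with adjusted p = 0.808 by limma. Zfp352 was 0.5 lower (1.5 against 2.0, limma adjusted p = 0.906), and Dppa2, Dppa4 and Zscan4f had the same mean as in control. Counted without a model, 2 of the 53 bins had both Brg1KD libraries beyond both controls, which 10.3% of all bins had. The first is the Zscan4 bin above. The second, at 90300001 to 90350000 on the edge of the Zfp352 island, was in B.2.1 in both controls and in B.2.2 in both Brg1KD libraries, with an adjusted p of 0.733 by limma.

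Ino80KD was compared with control in the same way for the esiRNA against Ino80. None of the 53 bins passed limma's adjusted threshold, against 3.22% of all bins, and 0 had an unadjusted p under 0.05, which 3.77% of all bins had. Bins without spread were rarer in the windows, so here and in the next comparison nothing is concluded from a lower share. With 1 common variance, with 100 kb bins and with batch as a block the count was also 0. Nor did any bin have both Ino80KD libraries beyond both controls, against 6.25% of all bins. Dppa2 and Dppa4 had a mean of 7.0 (SD 0, n = 2) against 7.5 in control, Zscan4f 3.5 against 4.0 and Zfp352 1.5 against 2.0, with adjusted p = 1, 0.970 and 1 by limma. Dppa3, Zscan4c and Zscan4d had the same labels as in control in both libraries. The count of called bins was 5 without Ino80KD replicate 2, all at the Dppa2 and Dppa4 locus (9.07% of all bins called in that fit), 4 without Ino80KD replicate 1 (8.31%) and 1 without control replicate 2 (9.86%).

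Set directly against each other, the knockdowns differed by limma at the same Zscan4 bin and at no other of the 53. It was in B.1.1 in both Brg1KD and in B.1.2 in both Ino80KD libraries (adjusted p = 9.78e-08 by limma), 1 of 53 bins against 3.96% of all bins, and 1.82% with Brg1KD nearer A. It was also the only bin with both libraries of a group beyond both of the other, against 8.86% of all bins. The Zscan4 window was 0.395 classes higher in Brg1KD than in Ino80KD (0.316 in batch 1 and 0.474 in batch 2, exact permutation p = 0.667). For the other loci the difference was 0.0833 (Dppa2 and Dppa4), 0.182 (Dppa3) and -0.0455 (Zfp352), each with an exact permutation p of 1. Over the 12 window differences of the 3 comparisons every adjusted p was 1. The limma p of the Zscan4 bin was 0.269 with 1 common variance and 0.445 with 100 kb bins, both adjusted. With the common variance the bin beyond the Dppa3 border passed in its place (3.11e-05 by limma). Leaving out a Brg1KD library gave a count of 11 (replicate 1, 9.86% of all bins called) or 6 (replicate 2, 10.4%), and leaving out an Ino80KD library 4 (replicate 1, 9.13%) or 7 (replicate 2, 9.85%).

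Loops were found at the Dppa genes and at none of the others. The deposited lists hold 5903 loops for control, 6013 for Brg1KD and 5475 for Ino80KD, with 2 anchors of 10 kb each and no score. There is 1 list per group, so a difference between lists has no replicate check and no test. In control Dppa2, Dppa3 and Dppa4 had a loop anchor within 50 kb, and in each knockdown Dppa2 and Dppa4 did. Over all 20375 genes the share with one was 56.9% (control), 57.1% (Brg1KD) and 54.4% (Ino80KD). No list held a loop with an anchor within 50 kb of Zscan4c, Zscan4d, Zscan4f or Zfp352.

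Dppa4 and Dppa2 were enclosed together by a short loop in all 3 lists. Its anchors were chr16:48240001-48250000 and chr16:48340001-48350000 in control (100 kb apart), chr16:48250001-48260000 and chr16:48340001-48350000 in Brg1KD (90 kb), and chr16:48250001-48260000 and chr16:48330001-48340000 in Ino80KD (80 kb). The anchors matched within 20 kb between all lists, though no pair of lists gave them identically. Only 8.55%, 4.64% and 0.420% of the loops of the same lists were shorter. The left anchor touched the steep border beside Dppa4, from the B side in control and from the A side in both knockdowns. These are neighbouring anchor positions, within the 20 kb allowed for a match. The longer Brg1KD loop described next used the B-side position.

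A longer loop from the same border was listed in both knockdowns and not in control. It joined chr16:48240001-48250000 with chr16:48670001-48680000 in Brg1KD (430 kb) and chr16:48250001-48260000 with the same far anchor in Ino80KD (420 kb), and spanned Dppa4, Dppa2 and Morc1. The far anchor lay beyond the end of the 400 kb segment, in B.1.1 in every library except Brg1KD replicate 2 (A.2.2). Brg1KD had a further loop of 320 kb, from chr16:48360001-48370000 near Dppa2 to chr16:48680001-48690000, that spanned Morc1 and matched none in the other lists. Loops without a match in the control list were common, at 21.9% of the Brg1KD list and 16.4% of the Ino80KD list, and 26.2% of the Brg1KD list had none in the Ino80KD list. The share of loops listed in both knockdowns and not in control was not counted. With a limit of 25 kb in place of 50 kb from the gene, the long loop counted in Ino80KD and neither long loop in Brg1KD, and the control loop beside Dppa3 described next did not count.

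The loop beside Dppa3 was listed in control only. It joined chr6:122660001-122670000, 29.73 kb from Dppa3, with chr6:122790001-122800000 (130 kb) in the body of Slc2a3, a glucose transporter gene, and Nanog, the pluripotency transcription factor, lay between. No loop of either knockdown list matched it, even within 50 kb at both anchors. Of all control loops 20.4% had no match in the Brg1KD list and 22.5% none in the Ino80KD list. The share with no match in either knockdown list was not counted. The labels under both anchors were A.1.1 in every library except Brg1KD replicate 2, where both were A.1.2, and Nanog had these same labels.

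**Figure D3:**
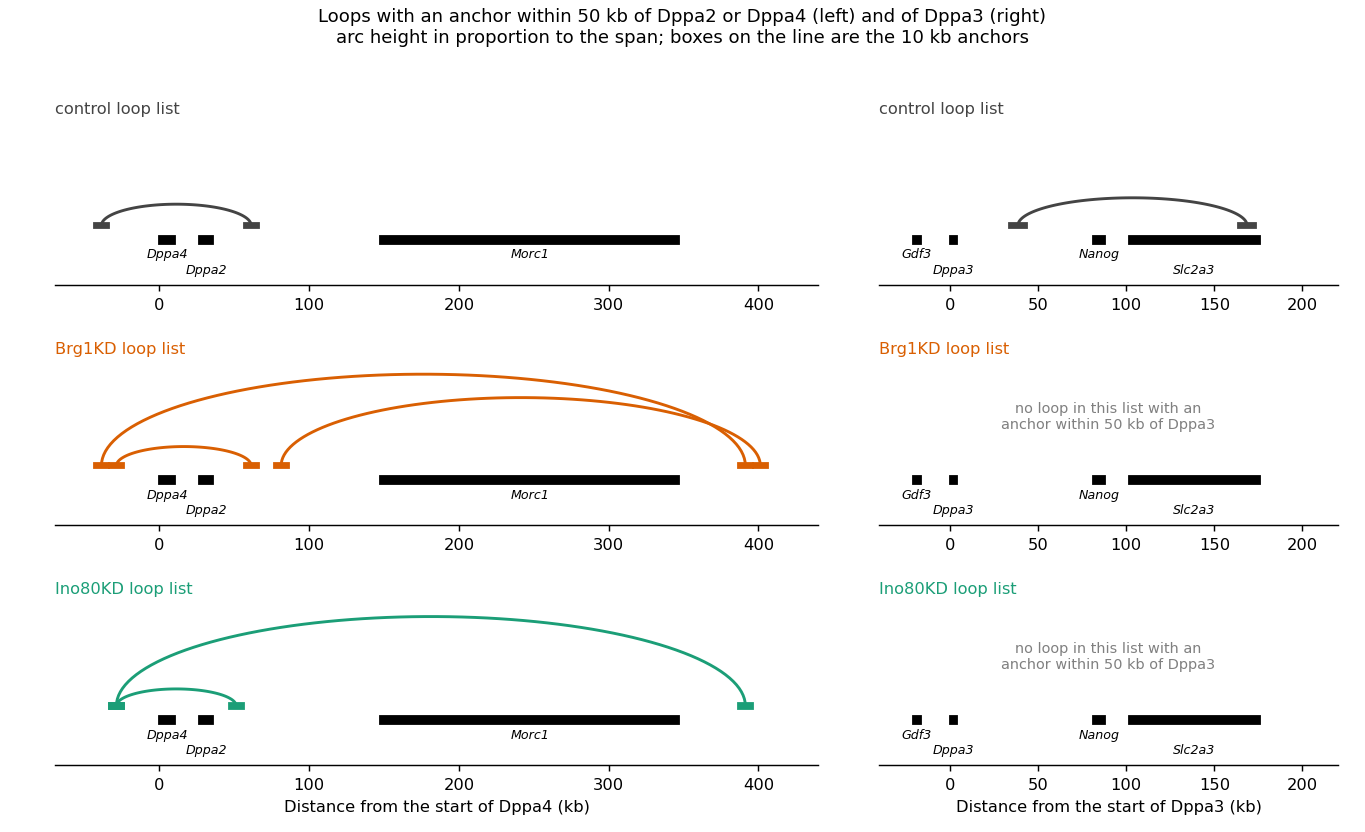
Loops with an anchor within 50 kb of Dppa2 or Dppa4 (left) and of Dppa3 (right) in the control, Brg1KD and Ino80KD lists, with the x axis as distance in kb from the start of Dppa4 or Dppa3, boxes for the 10 kb anchors and arc heights in proportion to the span. Black bars are protein-coding genes. The short loop over Dppa4 and Dppa2 is in all 3 lists, the 430 and 420 kb loops are in the knockdown lists, and the 130 kb loop over Nanog is in the control list.

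The windows around the Dppa genes varied more along the chromosome than those of most genes. The control mean rank spanned 6.5 classes within the Dppa2 and Dppa4 window and 6.0 within the Dppa3 window, and 98.7% and 96.6% of all genes had a smaller span in theirs. It spanned 1.5 classes at Zscan4, where 41.1% of genes had a smaller and 50.7% a larger span, and 1.0 at Zfp352, where 27.1% had a smaller and 58.9% a larger one. By the sum over the 6 libraries of the absolute difference in mean window rank, the 3 genes most like each locus were Fgf9 (0.417 classes), Pstpip1 (0.667) and Acpp (0.75) for Dppa2 and Dppa4. For Dppa3 they were Rnft1 (0.182), Nup160 (0.242) and Chkb (0.273), for Zscan4 Mms22l (0.737), C7 (0.753) and Pik3cg (0.768), and for Zfp352 Ptprc (0.441), Klrc3 (0.455) and Olfr656 (0.455). The same 6 labels as Dppa3 were carried by 88 of all genes (0.432%), and the 6 labels of Zfp352 by 30 (0.147%).

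Other genes of the 2-cell-like state ranged from B.2.2 to A.1.1, most of them in B. Of 24 listed, 19 could be placed, in 18 bins: 12 lay in B and 4 in A in all 6 libraries, with a median control rank of 3.0, where 24.5% of all genes were in B and 67.8% in A in all 6 and the median was 7.0. These are not independent genes: the 12 are 3 copies of Zscan4, 5 of Usp17l and 3 of Tdpoz, and Duxf3, and neighbouring copies share a locus. Duxf3, the gene of Dux, was in B.2.1 in every library except Brg1KD replicate 2 (B.1.2). The ubiquitin protease genes Usp17la, Usp17lb and Usp17le were in B.2.2 in all 6, and Zscan4b was in B.1.1 in all 6. Tcstv1 (A.1.2) and Tmem92 (A.2.1) kept an A label in all 6. The Tdpoz genes, a tandem cluster on chromosome 3, varied within groups, with Tdpoz3, Tdpoz4 and Tdpoz5 in B.1.1 and B.2.1 in the controls, B.1.2 in both Brg1KD and B.1.2 and B.2.1 in Ino80KD. None of the 19 lay in a bin called by limma in any of the 3 comparisons, and the lowest unadjusted p was 0.278 by limma. Of all genes, 1.49% were called towards A and 1.99% towards B in Brg1KD, and 0.918% and 1.55% in Ino80KD. For Brg1KD against Ino80KD the shares were 1.42% and 1.31%. With 19 genes in 18 bins, a count of 0 is near these shares and is no result about the list.

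**Figure D4:**
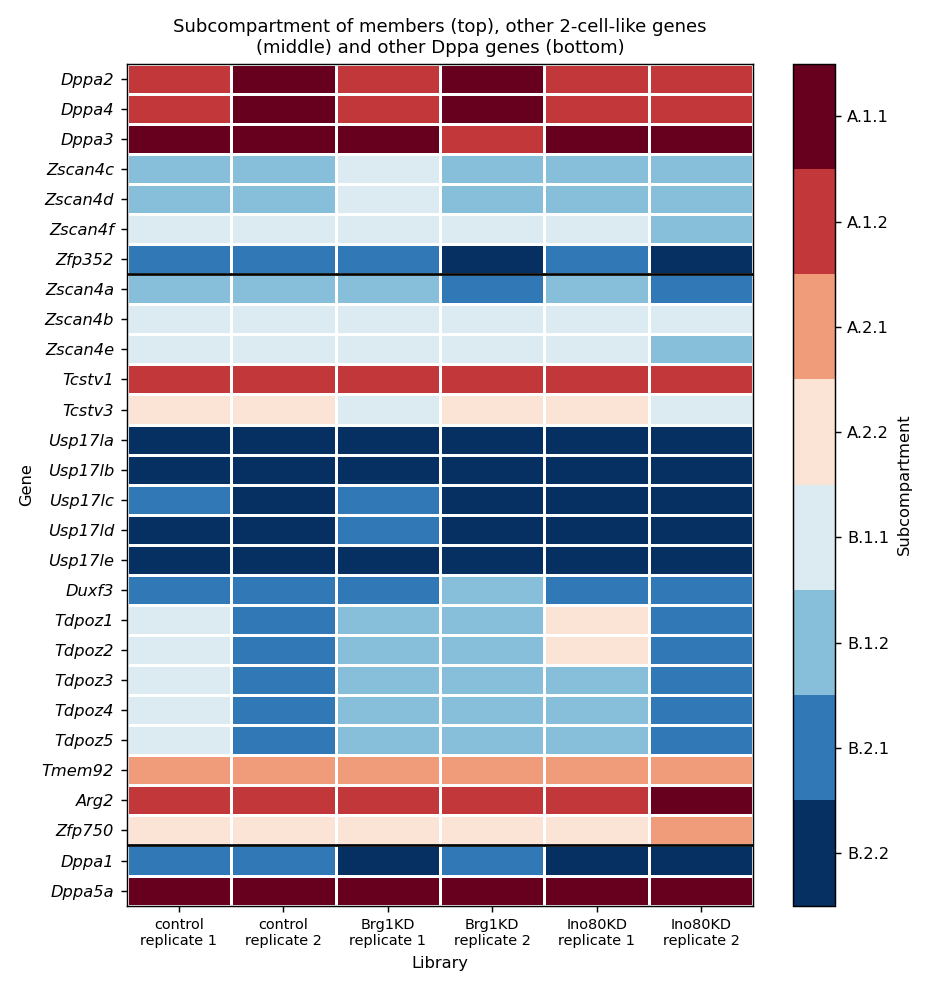
Subcompartment label in the 6 libraries (columns) of the 7 members (top block), 19 other 2-cell-like genes (middle) and 2 other Dppa genes (bottom), with red for A and blue for B, darker towards the extremes. Most 2-cell-like genes are blue in all columns, and Dppa2, Dppa3, Dppa4 and Dppa5a are red in all columns.

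The remaining Dppa genes lay apart from each other: Dppa5a, an RNA-binding protein gene of pluripotent cells, was in A.1.1 in all 6 libraries. Dppa1 was in B.2.1 in both controls, in B.2.2 and B.2.1 in Brg1KD and in B.2.2 in both Ino80KD libraries (-1 class, adjusted p = 0.970 by limma). All 24 listed regulators of the 2-cell-like state, among them Trim28, Setdb1 and Kdm1a, were in A in all 6 libraries with a median control rank of 8.0. None of the regulators was called, which is near the shares of all genes given above, and their lowest unadjusted p was 0.278 by limma. Of 12 primordial germ cell genes 10 were in A and 1, Dazl, in B in all 6. Prdm1, which encodes the germ cell determinant Blimp1, was the single one called, where 1.99% of all genes were called towards B in Brg1KD. It went from A.1.1 in both controls to A.1.2 in both Brg1KD libraries (-1 class, adjusted p = 8.00e-08 by limma), and both Ino80KD libraries had A.1.1. As for the Zscan4 bin, this p rests on a bin with no spread within any group. Kit, the stem cell factor receptor gene, was in A.2.1 in both controls and in B.1.1 in both Brg1KD libraries. The difference of -2 classes did not pass (adjusted p = 0.208, unadjusted p = 0.0106, both by limma).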

How the data were processed

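Each library of 6 came with 1 deposited file of segments, each with a label and a score that the authors set to the rank of the class divided by 8. The authors' score is relative to its own library. Loops came as 1 deposited list of positions per group. Each list is filed under replicate 2 but its name says merged; it was read as a pool of both replicates, which no label states. Per the submitters' processing notes, mm10, BWA, SAMtools, Juicer 2.0, HOMER and bedtools were used, with no roles named. The callers, their thresholds and the treatment of reads that map to several places are not given in the sources used here. Read totals are in none of the files, so the depth is unknown and ranks carry no counting interval.

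Segments were split at 50 kb, and 47717 bins ranked in every library entered the test by limma 3.58.1 (R 4.3.3; lmFit and eBayes on the 3 groups, Benjamini-Hochberg threshold 0.05). The fit was tested on simulated data with continuous noise. The real ranks are whole classes, so that test cannot say whether the p-values are calibrated. No pair of libraries held identical labels. Window means, over the bins that overlap the locus and 250 kb on either side, were compared by exact two-sided permutation. Loops were called matched when both anchors lay within 20 kb, and were not tested. Genes were placed by their midpoint; a gene pair whose windows overlap is 1 locus. The replicate number is the batch in the labels and so pairs the libraries; within a batch, the libraries' deviations from their group means had r = 0.0984 (Brg1KD and control), 0.102 (Ino80KD and control) and 0.0885 (Brg1KD and Ino80KD), and the fits reported have no block.

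The members, the gene lists and the rules were chosen with earlier results of these data known. All 7 members are named, with the genes under borders and anchors, the 3 most alike genes per locus (none within 5 Mb, 1 per 1 Mb), and of each pathway list the called genes or up to 4 with the largest shift; Trim28, Setdb1, Kdm1a, Dazl, Kit, Tcstv1, Tmem92, the Usp17l genes, Zscan4b, Duxf3 and the Tdpoz genes were named as examples after their values were seen. Alternatives were batch as a block, a common variance, other bin sizes, windows and scaling, other loop distances, and leaving out each library.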

Additional observations from a re-analysis of the deposited data

How the results depend on the processing

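With 2 against 2 libraries none of the 12 window differences could pass the threshold, so only their signs were compared, and 14 of 132 alternatives had the opposite sign. This count leaves out alternatives that gave 0. It also cannot include Brg1KD against control at Dppa2 and Dppa4, where the difference of 0 had no sign to reverse. That difference ran from -0.292 to 0.292 when 1 library was left out. For Ino80KD against control at Dppa2 and Dppa4 the value was 0.417 classes within batch 1, and for Brg1KD against Ino80KD -0.417. Ino80KD against control at Zscan4 was 0.211 within batch 1. At Dppa3, bins within 100 kb gave -0.1 (Brg1KD against control) and -0.2 (Brg1KD against Ino80KD), and the median rank gave -0.5 for the latter. Leaving out 1 library at a time moved the differences as follows: Ino80KD against control from -0.375 to 0.208 at Dppa2 and Dppa4, from -0.395 to 0.132 at Zscan4 and from -0.409 to 0.0455 at Zfp352, Brg1KD against Ino80KD from -0.208 to 0.375 at Dppa2 and Dppa4 and from -0.273 to 0.182 at Zfp352, and Brg1KD against control from 0.0455 to 0.409 at Dppa3, from 0.0789 to 0.447 at Zscan4 and from -0.409 to -0.0455 at Zfp352. The called bins numbered 1 to 11 (Brg1KD against control), 0 to 5 (Ino80KD against control) and 1 to 11 (Brg1KD against Ino80KD) in the same way, while the share of all bins called in those fits was 5.17% to 11.5%. With 100 kb bins 0 were called in each comparison. With batch as a block (replicate block) the counts were 1, 0 and 1, as without it. With 1 common variance the bin called for Brg1KD was the one beyond the Dppa3 border (adjusted p = 3.11e-05 by limma) in place of the Zscan4 bin. Of 231 alternatives for the members' own bins none that used all libraries passed, and 0 reversed a shift other than 0. Some that left out 1 library did pass, in fits where a group of 1 library is assumed to vary like the others. Shifts from control in such fits ran from -1 to 0 for Dppa3 and from 0 to 1 for Zscan4c and Zscan4d in Brg1KD. For Zscan4f they ran from -1 to 0 in Ino80KD. Some shifts of 0 took either sign when 1 library was left out. They ran from -0.5 to 0.5 for Dppa2 and Dppa4 (Brg1KD against control) and for Zfp352 (Brg1KD against Ino80KD). Unmatched member loops, 3 (Brg1KD against control), 2 (Ino80KD against control) and 1 (Brg1KD against Ino80KD), became 0, 0 and 0 for anchors on the gene, 0, 1 and 0 within 25 kb, and 5, 4 and 5 when anchors had to be identical. The cause of these changes was not tested.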
